A study of Mus musculus with 6 samples.

Results

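Alveolar type 1 (AT1) cells are the thin, flat cells that cover most of the gas-exchange surface of the lung, and 10 genes commonly used as their markers are described here: Ager, Hopx, Pdpn, Aqp5, Rtkn2, Clic5, Akap5, Vegfa, Igfbp2 and Cav1. They were found by gene symbol in a table of 41388 genes, and all 10 were present and passed the filter on low counts. The lungs came from adult mice kept in a light/dark cycle and were taken 7 h after lights on (ZT7). Zpbp2 knock-out (KO) mice were of the B6.129S7-Zpbp2 tmZuk/Mmjax strain, in which the 5′ region of Zpbp2 is deleted on a C57BL/6J background, and which had been bred in the facility for years. Wild-type (WT) mice were C57BL/6J from the same colony, and the labels name no other allele or agent. Each genotype had 3 libraries, numbered WT1 to WT3 and KO1 to KO3. By the study's methods these came from 3 mice per genotype. Anything else that differs between the KO strain and its controls cannot be told apart from the deletion. The study asked how the lung transcriptome differs when this region is deleted.

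Several features of the libraries touch the results. Total counts ran from 59134950 (KO3) to 71354388 (WT1), and 23070 to 23711 genes were detected in a library. Zpbp2 had 20, 15 and 7 counts in WT1 to WT3 and 1, 0 and 0 counts in KO1 to KO3. KO2 and KO3 differed by 1.69 to 3.39 times the variance that counting alone gives, whereas the other pairs within a genotype rose with the count to between 32.2 and 135 times. Whether KO2 and KO3 are separate mice or 1 library under both labels cannot be told apart from the counts. Tests therefore take the pair as 1 sample (WT n = 3, KO n = 2) unless 6 separate libraries are named, and adjusted p-values and calls from 6 separate libraries hold only if these are separate samples. The levels of KO2 and KO3 are printed separately for each member. WT3 and KO1 stood apart from the others, with summed squamous epithelium markers of 4714 and 9008 CPM (counts scaled to library size) against 32.6 to 42.5 CPM in the other 4 libraries.

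AT1 cells form the air side of the air-blood barrier and are anchored on a basement membrane shared with the capillaries. They arise from progenitors and, after injury, from alveolar type 2 (AT2) cells, the cuboidal cells that make surfactant. Their marker genes fall into groups by role: surface and membrane proteins (Ager, Pdpn, Aqp5, Cav1), regulators and scaffolds (Hopx, Rtkn2, Akap5, Clic5) and secreted factors (Vegfa, Igfbp2). Several are also used by other cells of the lung: Cav1 is abundant in endothelium, Pdpn marks lymphatic vessels and mesothelium, and Vegfa is made by many cells. All 10 had at least 7344 counts in each library, so the markers that define AT1 cells were present throughout. In whole lung RNA, more cells of a type and more RNA per cell cannot be told apart.

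The 10 genes did not move together between the genotypes. Ager, Hopx and Aqp5 were higher in KO at an adjusted p of at most 0.05, by 1.34 to 1.40 times. Igfbp2 and Pdpn also read higher in every KO library than in every WT library without passing the test. Clic5 read lower in every KO library without passing the test, and Akap5, Rtkn2, Vegfa and Cav1 overlapped between the genotypes. The plot of the members by library shows both patterns side by side.

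**Figure D1:**
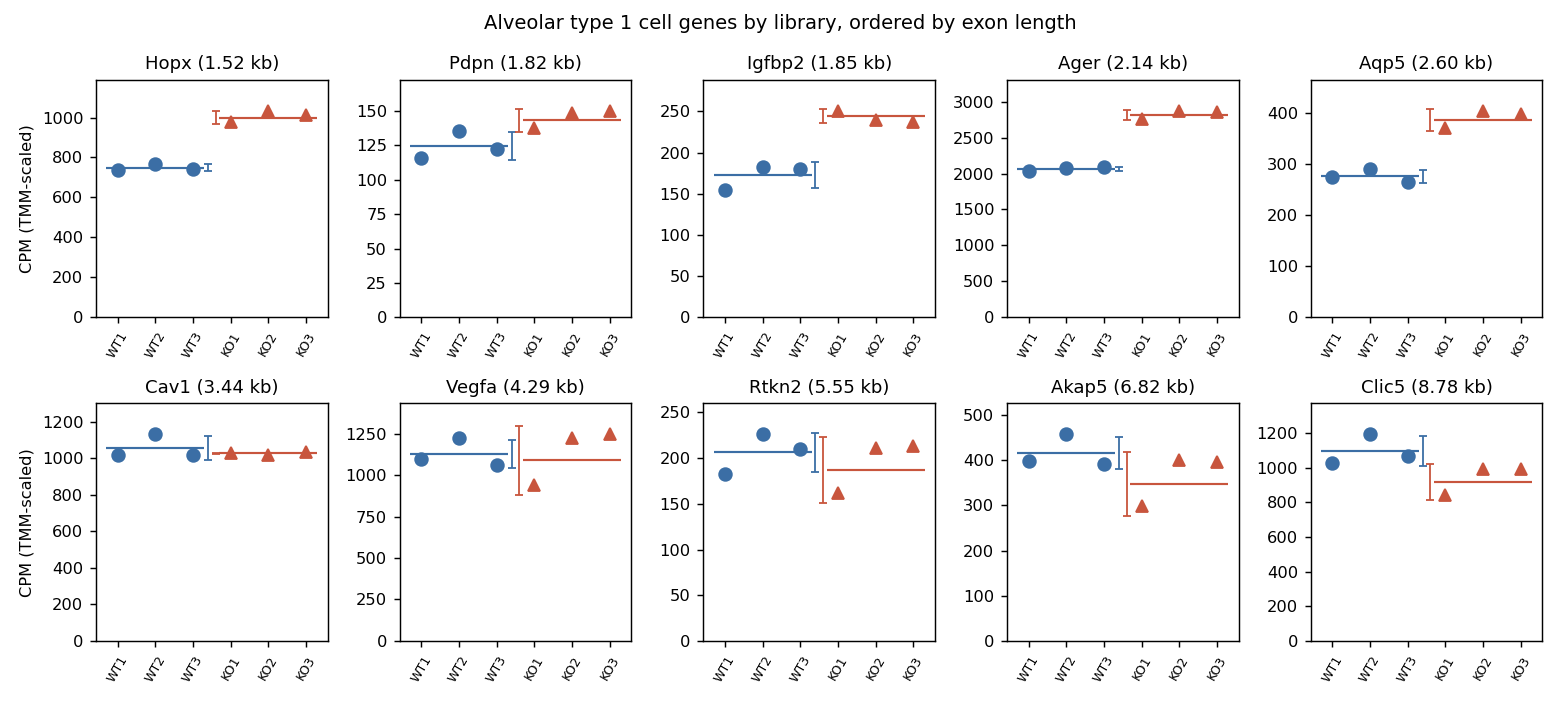
Level of each AT1 gene in each library, in CPM on TMM-scaled library sizes, with panels ordered by exon length (given in kb) and axes from 0. Circles are WT and triangles KO libraries, horizontal lines are genotype means and the vertical bars beside them are SD, with KO2 and KO3 averaged first (WT n = 3, KO n = 2). In the 5 panels of the top row every KO library lies above every WT library, and in the lower row only Clic5 has separated groups.

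Short sequences upstream of the gene starts are shown because the study concerns the circadian clock, whose activators bind the E-box CACGTG and whose repressor Nr1d1 binds sites built on AGGTCA. RefSeq (GRCm38.p6) gave 13 windows for 9 of the 10 members (Rtkn2 not matched), each from 250 bases before to 50 after a start, and both strands were searched. CACGTG was in 4 windows of 4 genes (Igfbp2, Pdpn, Hopx and Aqp5), and in 7.15% of all 32851 windows. Each is printed with 12 bases on either side in the direction of the gene, and capitals mark the letters matched. The printed stretches lie at chr1:72824326-72824355 (+), chr4:143299691-143299720 (-), chr5:77095336-77095365 (-) and chr15:99590929-99590958 (+). Within them, the matched letters begin 142, 144, 86 and 87 bases before the RefSeq start. The one of Hopx belongs to an internal start, and the one of Aqp5 lies within an exon of a longer GENCODE transcript.
Igfbp2: cgtgtgcacaagCACGTGccctcacgcaag
Pdpn: aactgtttactgCACGTGgcccccttttct
Hopx: tggcaaggccccCACGTGctagcccgcggc
Aqp5: tgccgcgtgggtCACGTGgcccgggcgggt

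AGGTCA, or its reverse complement TGACCT, was in 2 member windows, of Pdpn and Clic5, and in 16.3% of all windows. The stretches printed lie at chr4:143299581-143299610 (-) for Pdpn and chr17:44188387-44188416 (+) for Clic5.
Pdpn: aaacctggcctgAGGTCAtcttgtgatgct
Clic5: ttctgtccctcaTGACCTtcagaacattct

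CATTCC, the letters that TEAD factors bind, was in 0 member windows and in 14.7% of all windows. The clock motif D-box, searched as TTACGTAA or TTATGTAA, was in 0 member windows and 1.06% of all windows. A match of letters is a description and not a binding site.

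Of the surface proteins, Ager encodes the receptor for advanced glycation end products, which in lung sits on the basal membrane of AT1 cells. The gene lies at chr17:34597862-34600936 (+ strand, GRCm38). It had 2035, 2078 and 2087 CPM in WT1 to WT3 and 2764, 2874 and 2853 CPM in KO1 to KO3, so that the genotypes were separated and each was tight. WT averaged 2067 ± 27.9 CPM (SD, n = 3), and KO averaged 2813 ± 70.6 CPM (SD, n = 2). On the log2 scale the change was 0.45 (SE 0.05, 95% interval 0.31 to 0.59), with an adjusted p of 0.0446 by edgeR's quasi-likelihood test with Benjamini-Hochberg adjustment over 18660 genes.

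Aqp5 encodes a water channel of the apical membrane and lies at chr15:99590782-99594829 (+ strand). It had 275, 289.7 and 265 CPM in the WT libraries and 372, 405 and 399 CPM in the KO libraries. The lowest KO library was above the highest WT library, and the log2 fold change was 0.49 (SE 0.07, 95% interval 0.31 to 0.67, adjusted p = 0.0474 by edgeR). Pdpn, the mucin-like membrane protein podoplanin, lies at chr4:143267431-143299564 (- strand). Its levels were 116, 135 and 122.5 CPM in WT and 137.5, 148 and 150.2 CPM in KO. The groups did not overlap, but WT2 and KO1 were within a few CPM of each other, and the log2 fold change of 0.21 (SE 0.08, 95% interval -0.01 to 0.42) did not pass the test (adjusted p = 0.192 by edgeR).

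Cav1, the main coat protein of caveolae, lies at chr6:17306335-17341452 (+ strand). It read 1016, 1130 and 1020 CPM in WT and 1026, 1017 and 1033 CPM in KO. The KO libraries fell within the WT range, and the log2 fold change of -0.04 had a 95% interval of -0.22 to 0.14 (adjusted p = 0.778 by edgeR). Of the 6 caveola partners of Cav1, 0 passed the test by edgeR (2 by the fit with 6 separate libraries), and 2 had an unadjusted p of at most 0.05. Of all tested genes, 27.3% had such an unadjusted p and 18.9% were called with 6 separate libraries. Among the most abundant, Sdpr, which stabilises caveolae, read 711 CPM in WT and 680 CPM in KO on average. Ptrf, the cavin that coats them, read 669.6 CPM in WT and 807 CPM in KO (log2 fold change 0.27, adjusted p = 0.0706 by edgeR).

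Among the regulators, Hopx encodes a small homeodomain protein that binds no DNA itself and marks AT1 cells and their precursors. It lies at chr5:77086988-77115121 (- strand). It had 738, 768 and 740.4 CPM in WT and 976, 1034 and 1013 CPM in KO. The genotypes were separated, with a log2 fold change of 0.42 (SE 0.06, 95% interval 0.27 to 0.57, adjusted p = 0.0466 by edgeR). An antisense gene, Hopxos, shares 412 exon bases with it, and had 794 counts over all libraries against 337145 for Hopx. Whether counting used the strand is not given in the sources used here.

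Clic5 encodes a chloride intracellular channel protein that links membranes to the actin cortex, and lies at chr17:44188584-44280172 (+ strand). It read 1028, 1191 and 1066 CPM in WT and 843, 991 and 992 CPM in KO. Each KO library was below each WT library, with KO1 the lowest, and the log2 fold change of -0.25 (SE 0.11) had a 95% interval of -0.52 to 0.02 and an adjusted p of 0.212 by edgeR. Without KO1 it was -0.15. The ratio of Ager to Clic5 counts was 1.74 to 1.98 in the WT libraries and 2.88 to 3.28 in the KO libraries. This ratio pairs a gene that read higher with one that read lower and was chosen after their values were seen.

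Akap5, a scaffold for protein kinase A, lies at chr12:76324891-76334153 (+ strand). It had 399, 457 and 392 CPM in WT and 298, 400.2 and 396 CPM in KO. Only KO1 lay below the WT range, and the log2 fold change was -0.25 (SE 0.15, adjusted p = 0.346 by edgeR) with all libraries and -0.06 without KO1. Rtkn2 lies at chr10:67979570-68059740 (+ strand). Its values were 183, 226 and 209.9 CPM in WT and 162, 212 and 214 CPM in KO, again with only KO1 below the WT range. Its log2 fold change was -0.13 (SE 0.15, 95% interval -0.52 to 0.25, adjusted p = 0.622 by edgeR), and 0.04 without KO1. The antisense gene Gm16212 shares 216 exon bases with it and had 1 count over all libraries.

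Of the secreted factors, Igfbp2 encodes a binding protein for insulin-like growth factors that is found in mature AT1 cells. It lies at chr1:72824503-72852474 (+ strand). It had 154.5, 183 and 179.9 CPM in WT and 251, 239 and 237 CPM in KO. Its fold change was 0.51 on the log2 scale (SE 0.09, 95% interval 0.29 to 0.73), and every KO library was above the WT range, yet its adjusted p was 0.0523 by edgeR. In the fit with 6 separate libraries the adjusted p was 0.0113. Among the 10 further genes of the insulin-like growth factor axis (ligands, receptors and other binding proteins), 9 were tested and 0 passed by edgeR, with 5 at or below 0.05 before adjustment and 5 called in the fit with 6 separate libraries (2 higher and 3 lower), where the shares of all genes were 27.3% and 18.9%. Igfbp5, the most abundant, read 820.4 CPM in WT and 790.2 CPM in KO. Igfbp7 read 426 CPM in WT and 523 CPM in KO (log2 fold change 0.30, adjusted p = 0.096 by edgeR).

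Vegfa, the growth factor that keeps the alveolar capillaries alive, lies at chr17:46016993-46032369 (- strand). It had 1097, 1222 and 1061 CPM in WT and 941, 1225 and 1245 CPM in KO. KO1 was the lowest of all libraries and KO3 the highest, and the log2 fold change was -0.05 (SE 0.14, 95% interval -0.40 to 0.31, adjusted p = 0.867 by edgeR), or 0.13 without KO1. Of the 9 other VEGF ligands and receptors, 0 passed the test by edgeR, 2 had an unadjusted p of at most 0.05 and 2 were called lower with 6 separate libraries, beside 27.3% and 9.07% of all genes. Kdr, the main receptor of this factor, read 601 CPM in WT and 549 CPM in KO, and Nrp1, a co-receptor, read 491 CPM in WT and 423 CPM in KO (log2 fold change -0.21, adjusted p = 0.153 by edgeR).

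Counted over the list, 3 of 10 genes were called higher and 0 were called lower by edgeR. Before adjustment 4 members had a p of 0.05 or less, all of them higher in KO, where 27.3% of all genes had such a p in either direction. Of all 18660 tested genes, 1.38% were called higher and 0.906% lower, 2.28% in all. Groups separated upward in 5 of 10 members and downward in 1, and of all tested genes 20.0% had every KO library above every WT library and 20.7% every KO library below. With the 6 libraries as separate samples, 4 members were called higher, with Igfbp2 added, and 0 lower, where 9.81% of all genes were called higher and 9.07% lower. When 1 library was left out, by edgeR 0 members were called without WT1, WT2, WT3 or KO1. Those fits called 0, 0, 0 and 17 genes in all, with 3642, 3346, 4193 and 4534 at or below 0.05 before adjustment, and in them the adjusted p of Ager was 0.175, 0.189, 0.123 and 0.0829. The log2 fold changes of Ager, Hopx and Aqp5 stayed between 0.41 and 0.54 in those fits, and 4, 5, 4 and 4 members had an unadjusted p of at most 0.05. The median log2 fold change of the 10 members was 0.09, and that of all tested genes was 0.02.

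The levels can be set in order per kb of exon. In WT, Ager was highest at 965 CPM per kb, followed by Hopx (494), Cav1 (306), Vegfa (263), Clic5 (125), Aqp5 (106), Igfbp2 (93.3), Pdpn (68.5), Akap5 (60.9) and Rtkn2 (37.2). Of these neighbours, only Pdpn (63.6 to 74.4 CPM per kb) and Akap5 (57.4 to 67.0 CPM per kb) overlapped across the WT libraries. In KO, the order was kept except for Clic5, which came before Aqp5 and Igfbp2 in WT and, at 104.5 CPM per kb, after Aqp5 (149) and Igfbp2 (132) in KO. No neighbours in the KO order overlapped across the KO libraries. In CPM not scaled by length, Ager made up 28.4% of the summed members in WT and 34.5% in KO, while Clic5 made up 15.0% and 11.3%.

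The members that read higher were the short ones. Summed over the exons of GENCODE M21, Hopx measured 1.52 kb, Pdpn 1.82 kb, Igfbp2 1.85 kb, Ager 2.14 kb and Aqp5 2.60 kb, and all 5 had positive estimates with separated groups. Cav1 (3.44 kb), Vegfa (4.29 kb), Rtkn2 (5.55 kb), Akap5 (6.82 kb) and Clic5 (8.78 kb) all had estimates below 0. Aqp5, Igfbp2 and Ager were also the members with the most G and C in their longest transcript, at 64.0%, 62.1% and 59.4%, whereas Hopx (46.4%) and Pdpn (48.8%) lay in the range of the 5 long members (42.6% to 50.9%).

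The same gradient ran through all genes. In 10 bins of exon length, the median log2 fold change went from 0.20 for genes of 1.11 to 1.83 kb to -0.18 for genes above 9.19 kb, and was 0.14 in the shortest bin. By GC content of the longest transcript it went from -0.11 in the lowest of 10 bins to 0.17 in the highest. Relative to the WT mean, the medians ran between these length bins from 0.20 to -0.23 in KO1, from 0.15 to -0.15 in KO2 and from 0.14 to -0.15 in KO3, and stayed between -0.02 and 0.03 in each WT library in every bin. Across 18516 genes, which are not independent replicates, Spearman's rho between exon length and fold change was -0.33. WT values are deviations from their own mean and so sum to about 0 by construction, and small trends of opposite sign remained in WT1 and WT2. All KO libraries had the larger gradient, so it cannot be told apart from the genotype.

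**Figure D2:**
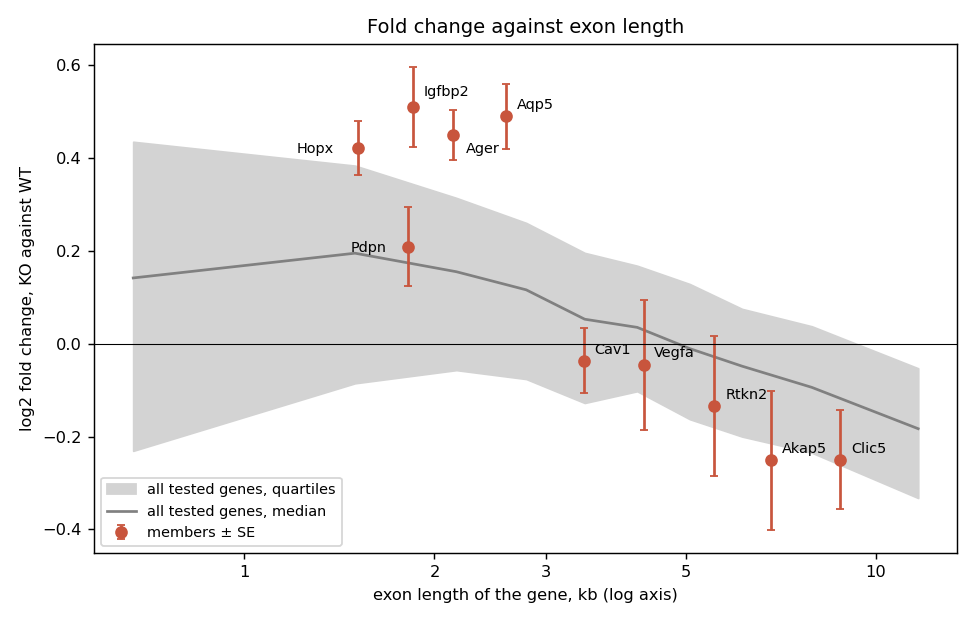
Log2 fold change (KO against WT) against exon length in kb on a log axis. Points are the 10 AT1 genes with SE, the grey line is the median of all tested genes in 10 bins of exon length, drawn at each bin's median length, and the grey band spans their quartiles. Akap5 lies just below the band, the other long members and Pdpn lie within it, and Hopx, Igfbp2, Ager and Aqp5 lie above it.

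Read against genes of their own length, the members split again. Aqp5 was 0.37 above the median log2 fold change of its length bin, Igfbp2 0.35, Ager 0.29 and Hopx 0.23. Pdpn was 0.01 above its bin. Akap5 (-0.20), Clic5 (-0.16), Rtkn2 (-0.12), Cav1 (-0.09) and Vegfa (-0.08) were below theirs. In the bins of Aqp5 and Igfbp2, 8.32% and 9.89% of genes had a larger fold change than they did, and for Ager and Hopx these shares were 13.5% and 20.3%.

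An offset for gene length and GC content was taken from each library's own trend, so length-bin medians near 0 follow by construction. A fit with this offset brought the medians of the 10 length bins to between -0.02 and 0.03. In it the log2 fold change was 0.29 for Hopx (95% interval -0.06 to 0.64), 0.23 for Ager (-0.10 to 0.56), 0.20 for Aqp5 (-0.17 to 0.58), 0.20 for Igfbp2 (-0.17 to 0.58) and 0.08 for Pdpn. The adjusted p-values by edgeR were 0.370 for Hopx, 0.446 for Ager, 0.556 for Aqp5 and 0.547 for Igfbp2. No member was called in this fit, nor was any other gene (0 of 18660, with 3192 at an unadjusted p of at most 0.05). With the offset on 6 separate libraries, an alternative added after the data were seen, Hopx alone was called among the members, at a log2 fold change of 0.35, in a fit that called 2010 genes. Clic5 and Akap5 came to -0.07 and -0.12 with the offset, and their estimates kept their sign.

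**Figure D3:**
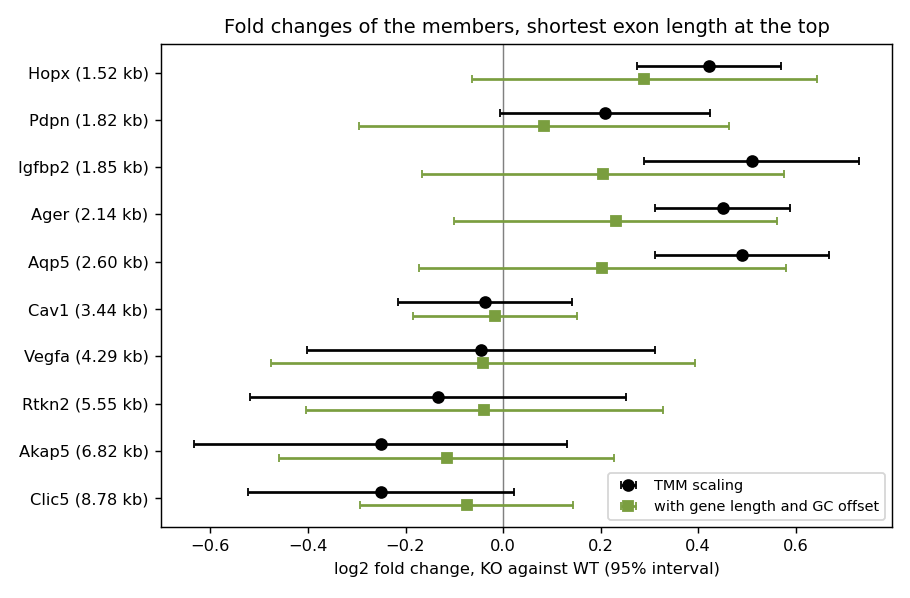
Log2 fold change of each AT1 gene (KO against WT) with its 95% interval, with genes ordered from the shortest exon length at the top to the longest. Black circles are the fit with TMM scaling alone and green squares the fit with an offset for gene length and GC content, in which the intervals of all 10 genes include 0.

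A list of 24 further genes of AT1 cells or their program also went both ways. S100a6, a small calcium-binding protein, was the one called, beside 1.38% of all genes called higher: it read 247, 261 and 237 CPM in WT and 409.8, 456 and 431 CPM in KO (log2 fold change 0.79, SE 0.07, adjusted p = 0.0446 by edgeR), and its exons are 1.37 kb long. Of the rest, 0 passed in either direction by edgeR, 8 of the 24 had an unadjusted p of at most 0.05 and 7 were called with 6 separate libraries (5 higher and 2 lower), beside 27.3% and 18.9% of all genes, while 12 of the 24 estimates were above 0 and 12 below. The most abundant were Ahnak, a giant scaffold protein (1704 CPM in WT and 1449 CPM in KO, log2 fold change -0.23, adjusted p = 0.224 by edgeR), and Emp2, a membrane protein of caveolae and rafts (1656 CPM in WT and 1525 CPM in KO, log2 fold change -0.11, adjusted p = 0.305).

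Divided at 3 kb of exon, a limit chosen after the values were seen, 7 of the 8 shorter genes of that list and 5 of the 16 longer ones had estimates above 0. Among all tested genes the shares were 67.3% under 3 kb and 42.8% over it. Krt7, a keratin of simple epithelia with a summed exon length of 7.05 kb, read 328.5 CPM in WT and 442 CPM in KO (log2 fold change 0.43, adjusted p = 0.0597 by edgeR, and 0.50 with the offset, adjusted p = 0.148). Summed length joins the exons of all annotated transcripts. The length of the Krt7 transcript expressed was not read, so whether it departs from the length gradient was not tested. Col4a3, a basement membrane collagen chain, read 304.5 CPM in WT and 224 CPM in KO (log2 fold change -0.44, adjusted p = 0.161 by edgeR). Both were picked after their values were seen.

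The genes listed here as ligands of the Ager receptor, which need not be all of them, averaged 4.26 to 36.95 CPM in WT. Of the 5 in the table, S100a4 was called higher, from 31.4, 32.7 and 34.9 CPM in WT to 46.7, 45.0 and 44.95 CPM in KO (log2 fold change 0.48, adjusted p = 0.0446 by edgeR), with exons of 0.584 kb. Of all genes 1.38% were called higher. Before adjustment 2 of the 5 had a p of 0.05 or less, and 2 were called higher with 6 separate libraries, beside 27.3% and 9.81% of all genes. S100a9, a protein of neutrophils, overlapped, at 26.1 to 43.5 CPM in WT and 34.1 to 49.8 CPM in KO.

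The summed AT1 members were 7041, 7680 and 7143 CPM in WT1 to WT3 and 7769, 8545 and 8531 CPM in KO1 to KO3. The KO libraries lay above the WT libraries, with KO1 close to WT2. The summed 24 further AT1 genes overlapped, at 9414 to 10490 CPM in WT and 9296 to 10150 CPM in KO.

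The AT2 markers, in contrast, pointed one way. All 10 had estimates above 0, and 4 were called higher, beside 1.38% of all genes: Sftpc, Sftpb, Sftpa1 and Sftpd, the genes of surfactant proteins, with log2 fold changes of 0.62, 0.49, 0.43 and 0.60 and adjusted p-values of 0.0446 by edgeR. With 6 separate libraries 8 of the 10 were called higher, beside 9.81% of all genes. The sum of all 10 was 22190 to 23210 CPM in WT and 31470 to 33170 CPM in KO, and over this sum Sftpc weighs most (12340 CPM in WT and 18910 CPM in KO). The ratio of summed AT1 members to summed AT2 markers was 0.317, 0.338 and 0.308 in WT1 to WT3 and 0.234, 0.270 and 0.271 in KO1 to KO3, lower in each KO library. The median log2 fold change was 0.09 for the AT1 members and 0.36 for the AT2 markers, and 0.03 and 0.28 with the offset for length and GC content, under which 0 AT2 markers were called by edgeR. These medians are descriptions and were given no test.

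**Figure D4:**
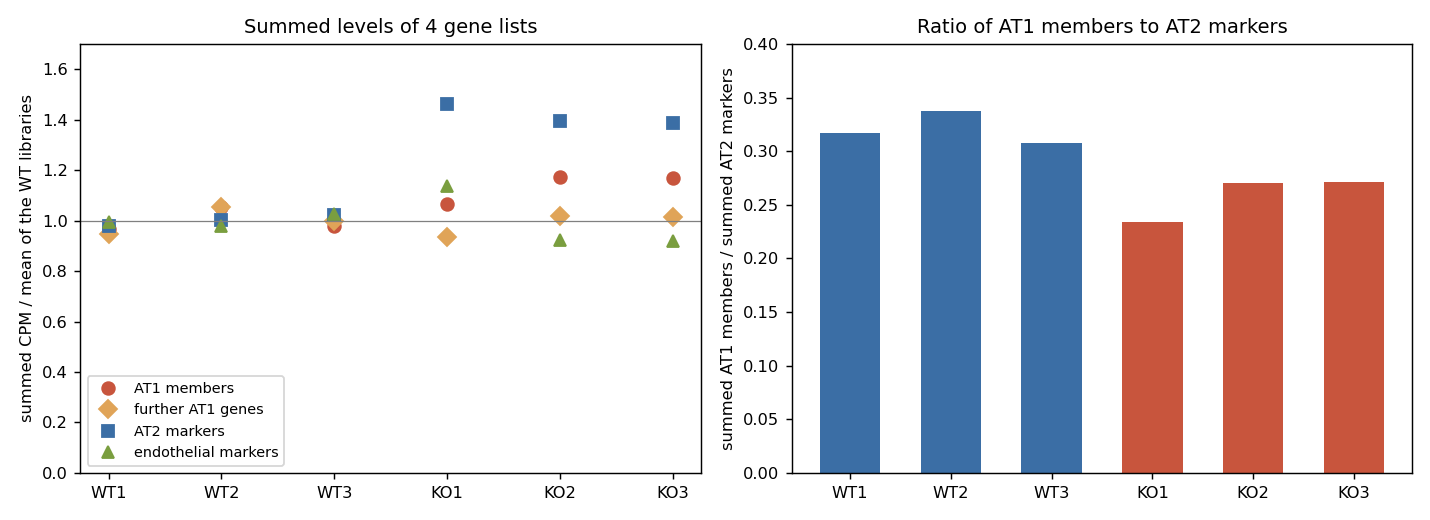
Left, summed CPM of the AT1 members, the further AT1 genes, the AT2 markers and the endothelial markers in each library, divided by the mean of the WT libraries. Right, ratio of the summed AT1 members to the summed AT2 markers, blue for WT and red for KO. AT2 markers reach 1.39 to 1.46 times the WT mean in KO and AT1 members 1.07 to 1.17 times.

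Markers of other cells that share these genes were read in the same libraries. The 10 endothelial markers summed to 3733 to 3920 CPM in WT, 4337 CPM in KO1 and 3520 and 3507 CPM in KO2 and KO3, with 0 called (Cdh5 and Pecam1 were the most abundant). The ratio of AT1 members to endothelial markers was 1.82 to 2.06 in WT, 1.79 in KO1 and 2.43 in KO2 and KO3, so it split the KO libraries. Lymphatic markers, led by Lyve1 and Mmrn1, summed to 252 to 294 CPM in WT and 246 to 272 CPM in KO with 0 called of 4 tested, and most of this sum was Lyve1 (227 CPM in WT and 229 CPM in KO). The other 3 tested, Mmrn1, Reln and Prox1, read lower in every KO library, with log2 fold changes of -0.38, -0.59 and -1.35 and adjusted p-values of 0.169, 0.181 and 0.051 by edgeR, and Reln and Prox1 are named after their values were seen. Mesothelial markers, led by Upk3b and Msln, stood at 347 to 368 CPM in WT, 319.5 CPM in KO1 and 501 to 506 CPM in KO2 and KO3, with 0 called of 6. The part of these cells in the levels of Cav1 and Pdpn was not tested.

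Markers of other tissues also differed between libraries. Adipocyte markers summed to 733 to 1145 CPM in WT and 136 to 310.5 CPM in KO, where Plin4 and Plin1, proteins of the fat droplet, were called lower (log2 fold change -1.89 and -3.23, adjusted p = 0.0446 and 0.0496 by edgeR) of 8 tested, beside 0.906% of all genes called lower, and Fabp4 and Cfd were the most abundant. Cardiomyocyte markers, led by Myh6 and Actc1, summed to 2536 to 7200 CPM in WT and 1339 to 1518 CPM in KO (0 called of 8). Erythroid markers (Hbb-bs and Hba-a1 the most abundant) reached 18980 and 19720 CPM in KO2 and KO3 against 2395 to 5517 CPM elsewhere, and hepatocyte markers (Alb and Apoa1) 42.9 and 42.4 CPM against 1.56 to 5.32 CPM. For neither list, nor for the 12 squamous epithelium markers led by Krt4 and Krt13, was any gene called. Hypoxia responsive genes, led by Aldoa and Ldha, stood at 1128 CPM in WT3 and 1442 CPM in KO1 and at 724 to 805 CPM elsewhere, with 0 called of 10. Most of this difference was Aldoa, at 753 CPM in WT3, 1001 CPM in KO1 and 409 to 477 CPM elsewhere. Ldha, Slc2a1 and Egln3 were also highest in WT3 and KO1, while the other genes of the list were not. Slc2a1 and Egln3 are named after their values were seen. With 6 separate libraries, calls were made in the adipocyte (6), lymphatic (1), cardiomyocyte (3), hepatocyte (5) and hypoxia (1) lists and 0 in the endothelial, mesothelial, erythroid and squamous lists, where 18.9% of all genes were called. With KO2 and KO3 merged, the genes with a p of 0.05 or less before adjustment by edgeR numbered 8 of 8 adipocyte, 3 of 4 lymphatic, 6 of 8 cardiomyocyte, 6 of 6 hepatocyte, 2 of 10 hypoxia, 4 of 10 endothelial, 0 of 6 mesothelial, 2 of 6 erythroid and 0 of 12 squamous markers, beside 27.3% of all genes.

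Without WT3 and KO1, comparing WT1 and WT2 with the sum of KO2 and KO3, the log2 fold changes were 0.47 for Ager, 0.44 for Hopx, 0.51 for Aqp5 and 0.50 for Igfbp2, close to their values with all libraries. Those of Vegfa (0.09) and Rtkn2 (0.05) turned above 0, and Clic5 came to -0.16. In this fit, as in that without KO1, the single KO sample is assumed to vary like the WT samples. With a term for the squamous markers, Ager stayed at 0.45 and Hopx at 0.43. Hopx and Aqp5 were no longer called with library size alone (adjusted p = 0.0526 and 0.0546 by edgeR), nor Ager and Hopx with no filter on low counts (0.0559 and 0.0532), nor Ager and Aqp5 with the offset on 6 separate libraries (0.0793 and 0.347).

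**Figure D5:**
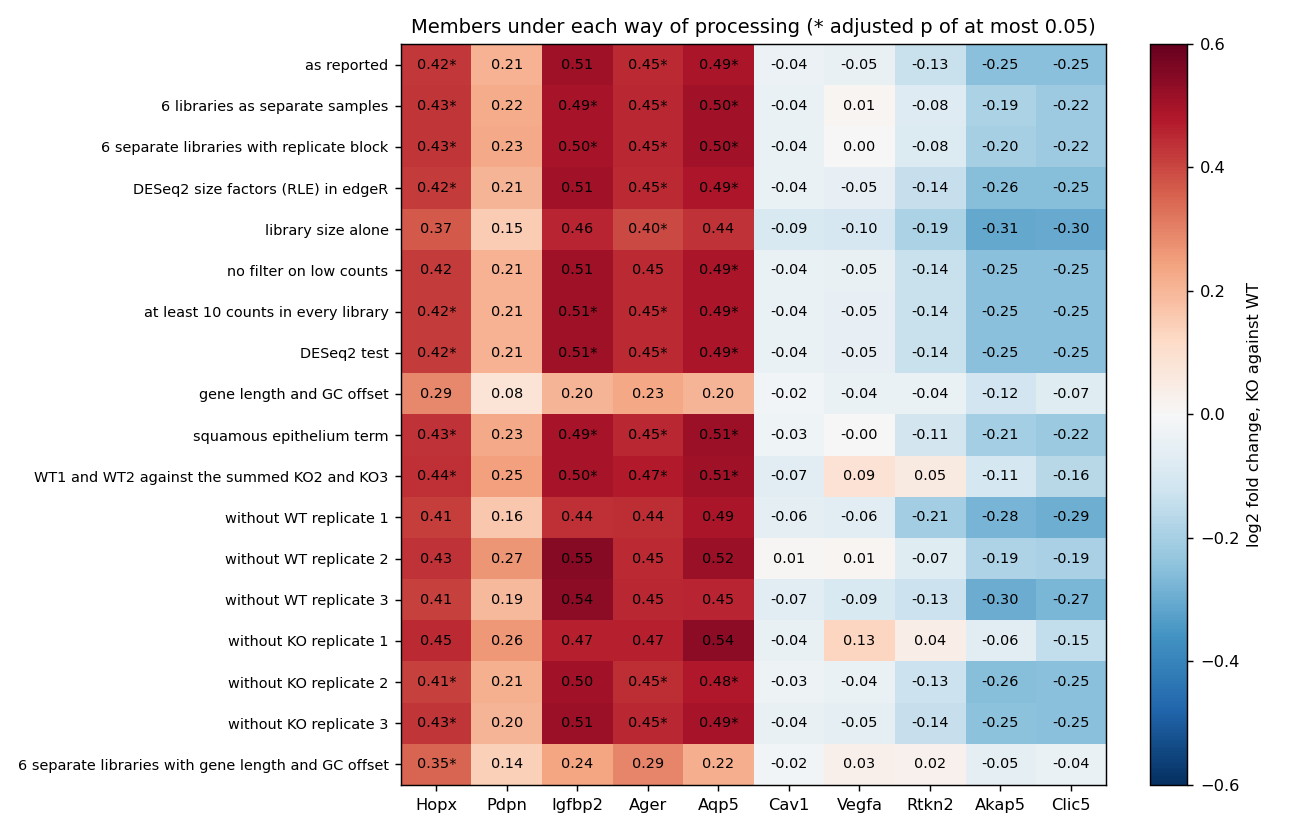
Log2 fold change of each AT1 gene (KO against WT) under each way of processing, one line per setting and one column per gene in order of exon length, with red for higher and blue for lower in KO and a star where the adjusted p was at most 0.05. Hopx, Igfbp2, Ager and Aqp5 stay between 0.20 and 0.55 throughout, and no gene has a star where 1 WT library alone or KO1 alone is left out or where the length and GC offset is used on merged libraries.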

How the data were processed

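Lung RNA was sequenced in 6 libraries. The authors trimmed the reads, aligned them to mouse GRCm38 (mm10) and counted reads per gene. The submitters' processing notes name Trimmomatic 0.36, STAR 2.5.3a, Picard 2.9.0 and HTSeq 0.6.0. The deposited values are raw counts, with no normalization, and 0 columns were left unused. The strand setting and annotation release are not given in the sources used here.

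KO was tested against WT with edgeR 4.0.16 in R 4.3.3: filterByExpr, TMM scaling, the two-sided quasi-likelihood test and Benjamini-Hochberg adjustment over 18660 genes, with a call at an adjusted p of at most 0.05. KO2 and KO3 were summed into 1 sample except where 6 separate libraries are named. CPM use TMM-scaled sizes of the 6 libraries, and SE were derived from the F statistic. Members had 7344 to 178351 counts per library. P-values measure only the spread between these samples.

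The 10 members and the other gene lists were chosen with earlier results of these data known. Text names all members, the called genes of each other list (at most 4) and its 2 most abundant, unless said otherwise. Lengths and positions come from GENCODE M21 (97.3% of gene identifiers matched). Alternatives were DESeq2 1.42.0, other scaling and filters, a replicate block, a length and GC offset (mgcv 1.9.3), a squamous epithelium term and leaving out libraries. The fitting script was checked on simulated counts.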

Additional observations from a re-analysis of the deposited data

How the results depend on the processing

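Ager, Hopx, Pdpn, Aqp5 and Igfbp2 kept estimates above 0 and Clic5 and Akap5 estimates below 0 under all 17 alternatives. Ager, Hopx and Aqp5 were each called in 10 of them and Igfbp2 in 6. Members called higher numbered 1 with library size alone, 1 with no filter on low counts and 0 with the length and GC offset. They numbered 1 with that offset on 6 separate libraries, and 0 to 3 when single libraries other than KO1 were left out. All genes called higher were, in the same order, 117 of 18660, 224 of 26985, 0 of 18660 and 1250 of 18014. When single libraries other than KO1 were left out, they numbered 0 to 265. With library size alone the share of higher calls among all called genes went from 60.3% to 38.2%.

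All genes called numbered 426 as reported, 3402 with 6 separate libraries, 909 under a filter of 10 counts per library, 3889 with DESeq2, 0 with the offset, 2010 with the offset on 6 libraries, 2287 with the squamous epithelium term, 2256 for WT1 and WT2 against the summed KO2 and KO3, and 0 to 418 when single libraries were left out. By edgeR no gene was called without WT1, WT2 or WT3 (3642, 3346 and 4193 had p of 0.05 or less before adjustment), and 17 were called without KO1. With the replicate block on 6 libraries 1157 genes were called. Same-numbered libraries deviated from their genotype means with correlations of -0.66, 0.69 and -0.78. WT3 and KO1, which share high squamous epithelium markers, correlated at 0.845, and KO2 and KO3 are nearly alike. Whether the numbers pair samples therefore cannot be told from these correlations.

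Vegfa changed sign to 0.013 with 6 libraries, 0.0045 with the replicate block, 0.088 for WT1 and WT2 against KO2 and KO3, and 0.030 with the offset on 6 libraries, and ran from -0.092 to 0.13 when single libraries were left out. Rtkn2 changed sign to 0.054 for WT1 and WT2 against KO2 and KO3 and to 0.024 with the offset on 6 libraries, and ran from -0.21 to 0.042 when single libraries were left out, as Cav1 did from -0.065 to 0.0085. The cause was not tested. Each member had at least 7344 counts in every library.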
